A study of Mus musculus with 34 samples.

Results

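The loci described here are 1669 regions of the mouse genome that carried a JunD ChIP-seq peak after TLR4 activation of macrophages and no peak of any other AP-1 monomer tested. They were selected on these peak lists themselves. Peaks of ATF3, cJun, JunD, Fos, Fra2 and JunB from C57BL/6 cells treated with Kdo2 lipid A (KLA) were merged into 43246 loci wherever they overlapped by 1 bp or more. A locus was kept when its only KLA peak was a JunD peak and when it overlapped no ATF3, cJun or JunD peak of vehicle-treated (Veh) cells. A locus without such a Veh peak is called a new KLA locus, and there were 19469 of these. JunD-alone loci made up 8.57% of the new KLA loci and 14.4% of the 11596 new KLA loci with a JunD peak.

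AP-1 proteins bind DNA as dimers of basic leucine zipper monomers from the Jun, Fos and ATF subfamilies. Their usual site is the TRE, TGACTCA, and a longer variant is the CRE, TGACGTCA. JunD is a Jun-family monomer present in many resting cells, where it forms homodimers or pairs with Fos or ATF proteins. In macrophages, AP-1 shares enhancers with PU.1, an Ets-family factor that marks much of the macrophage regulatory landscape, and with CEBP factors. Signalling through TLR4 induces several Fos and Jun genes within the hour, so the set of available AP-1 dimers changes.

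All cells were thioglycollate-elicited macrophages (TGEMs), which are recruited to the peritoneum by an irritant and collected from male mice. The AP-1 monomers, PU.1 and CEBPα were profiled in C57BL/6 mice (C57Bl/6EiJ in the labels, C57Bl/6J in the study's methods) aged 8 weeks. Veh was PBS, and KLA was given for 1 h at 100 ng/mL. PPARγ was profiled in C57BL/6 Veh cells as well. BALB/cJ mice of the same age supplied ATF3, cJun, JunD, Fos and JunB under both treatments, without Fra2. PPARγ knockout TGEMs on the C57BL/6 background (C57Bl6-PPARgKO) supplied ATF3, cJun and JunD in Veh. Neither the age of these mice nor the promoter or cell type that drives the deletion is given in the sources used here. There were 34 samples and 30 peak lists, since the 4 inputs have none, and the BALB/cJ Fos Veh list was empty. Each list stands for all replicate experiments of its condition. The tests therefore compare loci, and their p-values say nothing about the spread between mice or experiments. PU.1 Veh peaks lay in or within 5 kb of 8 of 8 macrophage marker genes, of 1 of 4 T cell, 1 of 3 B cell, 1 of 3 neutrophil and 3 of 4 epithelial or stromal marker genes.

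Sequences of 4 JunD-alone loci are shown first because these were the strongest, by JunD count, among the loci where BALB/cJ cells also had a JunD KLA peak and no other AP-1 peak in Veh or KLA. Each line gives the central 200 bases on the plus strand of GRCm38 (mm10), and capitals mark matches to any of the 14 motifs described below.
Locus past the end of Dusp1, chr17:26504564-26504763: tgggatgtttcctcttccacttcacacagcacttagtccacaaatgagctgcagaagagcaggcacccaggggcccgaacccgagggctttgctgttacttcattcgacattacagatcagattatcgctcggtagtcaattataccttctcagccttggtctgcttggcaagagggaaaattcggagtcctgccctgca
Slc6a6 intron, chr6:91703398-91703597: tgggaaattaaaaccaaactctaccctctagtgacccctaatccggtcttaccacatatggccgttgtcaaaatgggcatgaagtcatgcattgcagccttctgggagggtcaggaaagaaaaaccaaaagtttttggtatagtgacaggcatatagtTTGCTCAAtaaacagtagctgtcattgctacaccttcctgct
Gas7 intron, chr11:67616820-67617019: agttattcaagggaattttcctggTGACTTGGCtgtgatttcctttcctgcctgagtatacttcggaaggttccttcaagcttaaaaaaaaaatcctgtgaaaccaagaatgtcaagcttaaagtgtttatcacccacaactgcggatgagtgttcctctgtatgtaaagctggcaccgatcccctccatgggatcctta
Gm47711 promoter, chr13:37325559-37325758: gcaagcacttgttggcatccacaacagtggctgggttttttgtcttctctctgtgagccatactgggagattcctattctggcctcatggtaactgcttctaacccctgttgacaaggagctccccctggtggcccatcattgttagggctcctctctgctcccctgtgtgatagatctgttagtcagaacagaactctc
The Slc6a6 window held a CEBP motif and the Gas7 window an antioxidant response element (ARE), while the other two windows held none of the motifs. No window of the 4 held a TRE or a CRE.

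For contrast, the next 3 lines give 61 bases around the TRE, in capitals, of the strongest JunD-alone loci that held one. These 3 were added to the planned set to show the canonical AP-1 site.
Cxcl2, chr5:90906678-90906738: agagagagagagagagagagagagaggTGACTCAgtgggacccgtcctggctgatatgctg
Gm23904, chr8:86170231-86170291: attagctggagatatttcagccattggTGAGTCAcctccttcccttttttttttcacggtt
Tns1, chr1:73947715-73947775: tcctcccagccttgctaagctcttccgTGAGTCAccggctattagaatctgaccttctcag
TGACTCA and TGAGTCA are the same site read on opposite strands. Each locus is named after the gene of its nearest TSS, which lay 2875, 63621 and 6701 bp away in this order. The Gm23904 locus was between genes. BALB/cJ cells had JunD, ATF3 and Fos KLA peaks there (48, 68 and 94) and at Tns1 (34, 29 and 48). At Gm23904 they also had cJun (27) in KLA and JunD (56) and ATF3 (26) in Veh.

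Each JunD-alone locus consisted of a single JunD peak, and these peaks came from the weak end of the JunD KLA list. Their counts (per peak as deposited, taken as reads not scaled to library size) ran from 120 to 510 with a median of 150 and quartiles of 135 and 170. The whole list of 31640 peaks had a median of 277 and a maximum of 1099. No JunD-alone locus was in the strongest 10% of the list, 17 (1.02%) were in the strongest 50%, and 1460 (87.5%) were in the weakest 25%. Among the 9927 new KLA loci where JunD was joined by another monomer, 32.3% were in the weakest 25% and 34.7% in the strongest 50%. Counts and the absence of other peaks chose the loci, so these values are descriptions without a test.

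**Figure D1:**
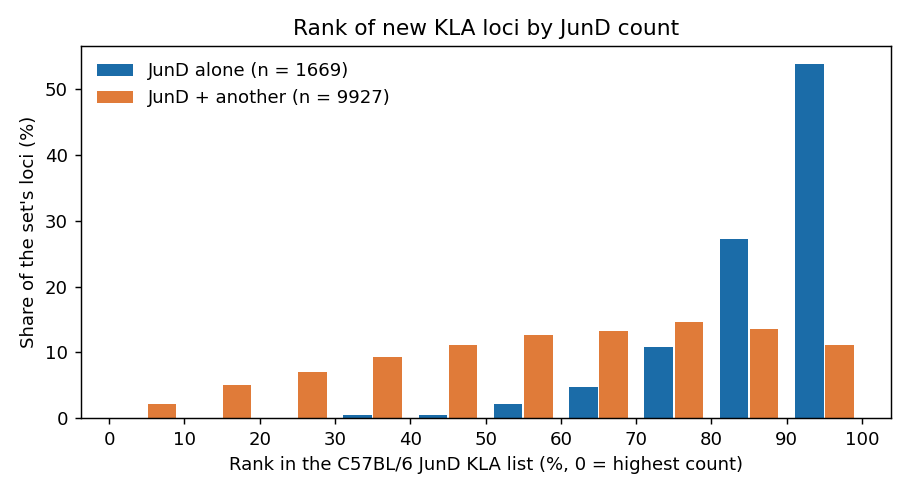
Share of loci (%) in each 10% of the C57BL/6 JunD KLA list ranked by count, with the highest counts at 0, for JunD-alone loci (blue) and new KLA loci with JunD and another monomer (orange). JunD-alone loci pile up at the weak end, with 53.9% in the last bin, where 11.2% of the shared loci lie.

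The scaled irreproducible discovery rate (IDR) score, which runs from 540 to 1000 and rises with the reproducibility of a peak's rank, was at its ceiling for 131 JunD-alone peaks (7.85%) and for 67.8% of all JunD KLA peaks. Its median over JunD-alone loci was 648. The JunD KLA list also stood apart from the other 5 KLA lists in scale, since its lowest count was 120, against 31 for ATF3, 23 for Fos, 23 for Fra2, 16 for cJun and 16 for JunB, and the JunD Veh list started at 27. Summed counts ranged from 541268 for JunB to 10395306 for JunD over the 6 KLA lists. The part of this difference in scale in which loci were called JunD-alone was not tested. New loci with ATF3 alone (4479) and with Fos alone (1162) also came from the weak end of their own lists, with 75.6% and 78.3% in the weakest 25%.

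The edge of the rule was narrow. A peak that would have excluded the locus lay within 50 bp, without overlap, of 30 JunD-alone loci, whose median count was 166 and highest 371. Conversely, 26 other JunD KLA peaks overlapped an excluding peak by 50 bp or less, and their median count was 162. Within 500 bp, 320 JunD-alone loci (19.2%) had a KLA peak of another monomer and 207 (12.4%) had an ATF3, cJun or JunD Veh peak. Within 10000 bp, 1251 had a KLA peak of another monomer, most often ATF3 (71.5%) or Fos (60.5%). The ATF3 and Fos lists were also the longest of the other KLA lists, with 36745 and 24365 peaks. JunD-alone loci were thus interspersed with other AP-1 loci, and 24 (1.44%) lay within 500 bp of another JunD-alone locus. Such neighbours were not counted for other new KLA loci, so these shares describe the JunD-alone loci without a comparison.

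JunD-alone loci were found at promoters more often than the other new KLA loci. The locus centre was within 1 kb of a transcription start site (TSS) at 538 of 1669 loci (32.2%, 95% Wilson interval 30.0 to 34.5%). The share over all new KLA loci was 19.6%. It was 17.5% at loci with JunD and another monomer, 14.8 percentage points lower (95% interval 12.4 to 17.2, adjusted p = 2.58e-39, two-sided Fisher's exact test with Benjamini-Hochberg adjustment over 61 tests). By the same exact test the gap to ATF3-alone loci was 14.8 points (adjusted p = 1.73e-33) and that to Fos-alone loci 8.48 points (5.13 to 11.8, adjusted p = 2.89e-06). Of the 21 features tested against loci with JunD and another monomer, 6 were more frequent at JunD-alone loci, 5 were less frequent and 10 did not pass the threshold. The median distance to a TSS was 3372 bp for JunD-alone loci and 6406 bp for loci with JunD and another monomer.

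Outside promoters, 650 JunD-alone loci (38.9%) lay in introns and 418 (25.0%) between genes, beside 45.5% and 31.1% of all new KLA loci. Exons held few of them, 23 in UTRs (1.38%), 10 in coding exons (0.599%) and 30 in noncoding exons (1.80%). Over all new KLA loci these shares were 1.36%, 0.771% and 1.71%. Chromosome 2 held 150 loci, chromosome 11 held 144 and chromosome X held 25, counts that were not set against other loci or chromosome length. The median GC content of the central 200 bp was 56.5% at promoters and 46.5% at loci 3 kb or more from a TSS. Repeats marked in the assembly covered more than 50% of that window at 90 loci (5.39%), against 4.90% of the loci with JunD and another monomer.

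The promoter share was much the same over the range of JunD counts. With the JunD-alone loci in 5 equal groups by count, it was 33.2% in the weakest group (95% interval 28.4 to 38.5%) and 31.1% in the strongest (26.4 to 36.3%). Within the weakest 25% of the JunD KLA list, 32.1% of the 1460 JunD-alone loci and 19.4% of the 3204 loci with another monomer were at promoters.

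PU.1 Veh peaks were more frequent at JunD-alone loci than at other new KLA loci, though less frequent than over all KLA loci. A PU.1 Veh peak overlapped 529 JunD-alone loci (31.7%, 95% interval 29.5 to 34.0%), compared with 21.6% of all new KLA loci and 42.3% of the 43246 KLA loci. The share was 23.1% at loci with JunD and another monomer (8.56 points lower, Fisher's exact test, adjusted p = 7.90e-13), 18.1% at ATF3-alone loci (adjusted p = 2.91e-28) and 15.7% at Fos-alone loci (adjusted p = 6.54e-22). These PU.1 peaks were of ordinary strength, with a median count of 247 where the median of the whole PU.1 Veh list was 259.

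In KLA, PU.1 peaks overlapped 727 JunD-alone loci (43.6%, 41.2 to 45.9%), beside 36.4% of all new KLA loci and 52.2% of all KLA loci. ATF3-alone loci had 22.1% and Fos-alone loci 21.9% (Fisher's exact test, adjusted p = 5.28e-58 and 6.52e-33). Against loci with JunD and another monomer (46.0%) the difference of -2.41 points had a 95% interval from -4.96 to 0.177 and did not pass Fisher's exact test (adjusted p = 0.106). The direction of this last comparison depended on peak strength. Within bins of 10% by rank in the JunD list the share was 7.39 points higher at JunD-alone loci (adjusted p = 1.45e-06, Cochran-Mantel-Haenszel chi-square test), and in the weakest 25% of the list it was 42.7% of the JunD-alone loci and 37.1% of the others. Among loci 3 kb or more from a TSS it was 4.40 points lower at JunD-alone loci, without regard to rank (Fisher's exact test, adjusted p = 0.0473).

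Most PU.1 peaks at JunD-alone loci were found under both treatments. There were 474 loci (28.4%) with PU.1 in Veh and KLA, 253 (15.2%, 13.5 to 17.0%) in KLA only, 55 (3.30%) in Veh only and 887 (53.1%) in neither. Of the JunD-alone loci with PU.1 in KLA, 65.2% (61.7 to 68.6%) already had it in Veh. At loci with JunD and another monomer that figure was 47.0% (45.5 to 48.4%), and 24.4% of those loci (23.5 to 25.2%) had PU.1 in KLA only. The share already in Veh was 67.1% (64.1 to 69.9%) at ATF3-alone loci, 57.5% (51.3 to 63.4%) at Fos-alone loci, 53.1% over all new KLA loci and 73.7% over all KLA loci, so a high value was not particular to JunD-alone loci. These shares were compared by their intervals only. The PU.1 Veh list had counts from 110 upward and the PU.1 KLA list from 25 upward, so a peak missing from a list can lie under its floor.

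CEBPα was seldom present. Its Veh peaks overlapped 73 JunD-alone loci (4.37%), beside 4.69% of all new KLA loci, and its KLA peaks overlapped 135 (8.09%, 6.87 to 9.50%), beside 15.5%. Loci with JunD and another monomer had a CEBPα KLA peak in 22.8% of cases, 14.7 points more (95% interval 13.1 to 16.2, Fisher's exact test, adjusted p = 3.31e-49). Part of this gap went with peak strength. Within bins of equal rank in the JunD list, JunD-alone loci minus these loci gave -6.20 points (Cochran-Mantel-Haenszel chi-square test, adjusted p = 2.54e-09). ATF3-alone loci, with 8.73%, did not differ past the threshold (JunD-alone minus ATF3-alone, 95% interval -2.13 to 0.973 points, Fisher's exact test, adjusted p = 0.519). Fos-alone loci had fewer, 4.91% (exact test, adjusted p = 0.00184). The CEBPα KLA peaks at JunD-alone loci were also weak, with a median count of 50.0 in a list whose median was 69.0. In Veh the shares at loci with JunD and another monomer (5.08%) and at ATF3-alone loci (5.14%) gave differences that did not pass the exact test (adjusted p = 0.321 and 0.310), with 95% intervals from -1.69 to 0.463 and from -1.88 to 0.488 points. A CEBPα peak was found in KLA only at 89 JunD-alone loci (5.33%), in both treatments at 46 (2.76%) and in Veh only at 27 (1.62%), beside 11.9%, 3.69% and 1.01% of all new KLA loci. PU.1 and CEBPα were found together in KLA at 54 JunD-alone loci (3.24%), beside 7.50% of all new KLA loci. The share was 12.4% at loci with JunD and another monomer, 2.19% at ATF3-alone loci and 1.64% at Fos-alone loci. Neither was found in KLA at 861 JunD-alone loci (51.6%), beside 55.5% of all new KLA loci. That share was 43.6% at loci with JunD and another monomer, 71.4% at ATF3-alone loci and 74.9% at Fos-alone loci.

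PPARγ, a nuclear receptor that controls lipid genes in macrophages, was profiled only in Veh. Its peaks overlapped 458 JunD-alone loci (27.4%, 25.4 to 29.6%), beside 18% of all new KLA loci and 42.5% of all KLA loci. The shares were 19.8% at loci with JunD and another monomer (Fisher's exact test, adjusted p = 2.30e-11), 12.8% at ATF3-alone loci (adjusted p = 3.42e-38) and 12.8% at Fos-alone loci (adjusted p = 8.40e-21). PPARγ peaks went with promoters. At promoters, 255 of 538 JunD-alone loci (47.4%) had a PPARγ peak, and at 3 kb or more from a TSS 151 of 868 (17.4%) did. Among the loci 3 kb or more from a TSS, those with JunD and another monomer had 16.3%, and the difference of 1.09 points did not pass the exact test (adjusted p = 0.592). There the shares at ATF3-alone loci (10.6%) and Fos-alone loci (7.57%) were still lower (exact test, adjusted p = 1.15e-06 and 2.54e-08).

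**Figure D2:**
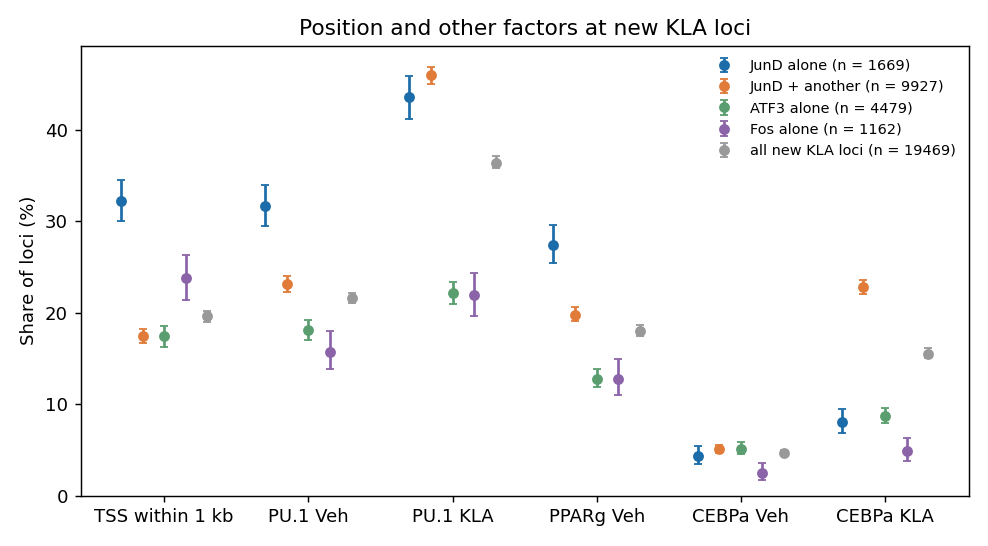
Share of loci (%) with a TSS within 1 kb and with a peak of PU.1, PPARγ or CEBPα in C57BL/6 TGEMs, for JunD-alone loci, 3 other sets of new KLA loci and all new KLA loci; error bars are 95% Wilson intervals, and a few loci on other sequences are left out of the TSS share. JunD-alone loci have the highest TSS, PU.1 Veh and PPARγ shares of the 4 sets, and a CEBPα KLA share of 8.09% where the loci with JunD and another monomer reach 22.8%.

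The BALB/cJ lists were not used to choose the loci and show how far the JunD-alone state recurred in another strain. A BALB/cJ JunD KLA peak overlapped 655 of the 1669 loci (39.2%, 36.9 to 41.6%), beside 49.8% of all new KLA loci. Loci with JunD and another monomer in C57BL/6 had one in 66.7% of cases, 27.5 points more (95% interval 24.9 to 30.0, adjusted p = 4.31e-97, Fisher's exact test). In the weakest 25% of the C57BL/6 JunD KLA list the shares were 37.3% (34.8 to 39.8%) and 48.6% (46.8 to 50.3%). The recovered BALB/cJ JunD peaks were weak in their own list too, with a median count of 35.0 where the list had 49.0.

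A BALB/cJ KLA peak of another monomer, with several lists pooled, was more common at these loci than a JunD peak, as in every set compared. A peak of another monomer was found at 1023 loci (61.3%, 58.9 to 63.6%), beside 74.6% of all new KLA loci, where JunD was found at 49.8%. The shares for another monomer and for JunD were 88.8% and 66.7% at loci with JunD and another monomer in C57BL/6. They were 57.9% and 27.1% at ATF3-alone loci and 55.9% and 27.1% at Fos-alone loci. Fos was found at 805 loci (48.2%), ATF3 at 516 (30.9%), JunB at 226 (13.5%) and cJun at 79 (4.73%). Each was below its share over all new KLA loci, which was 63.9% for Fos, 54.8% for ATF3, 33% for JunB and 11.9% for cJun. The BALB/cJ Fos KLA list, with 40459 peaks, was longer than the C57BL/6 list of 24365, and its peaks at JunD-alone loci were weak, with a median count of 42.0 in a list with a median of 65.0. Of the 655 loci with a BALB/cJ JunD KLA peak, 496 (75.7%, 72.3 to 78.9%) had another monomer as well, and the same figure was 96.6% (96.1 to 97.0%) for loci with JunD and another monomer in C57BL/6.

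In BALB/cJ, 159 JunD-alone loci (9.53%) had JunD as the only AP-1 KLA peak, 496 (29.7%) had JunD with another monomer, 527 (31.6%) had another monomer without JunD and 487 (29.2%) had none of the 5. JunD as the only KLA peak was found at 2.27% (1.99 to 2.58%) of the loci with JunD and another monomer. For other sets, JunD alone is the gap between the share with any of the 5 monomers and the share with another monomer. These shares were 78.6% and 74.6% over all new KLA loci, 62.7% and 57.9% at ATF3-alone loci and 61.4% and 55.9% at Fos-alone loci. At JunD-alone loci they were 70.8% and 61.3%. At 121 loci (7.25%) BALB/cJ cells had JunD alone among the 5 monomers profiled in KLA and no AP-1 peak in Veh. Fra2, which the rule used in C57BL/6, was not among them.

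**Figure D3:**
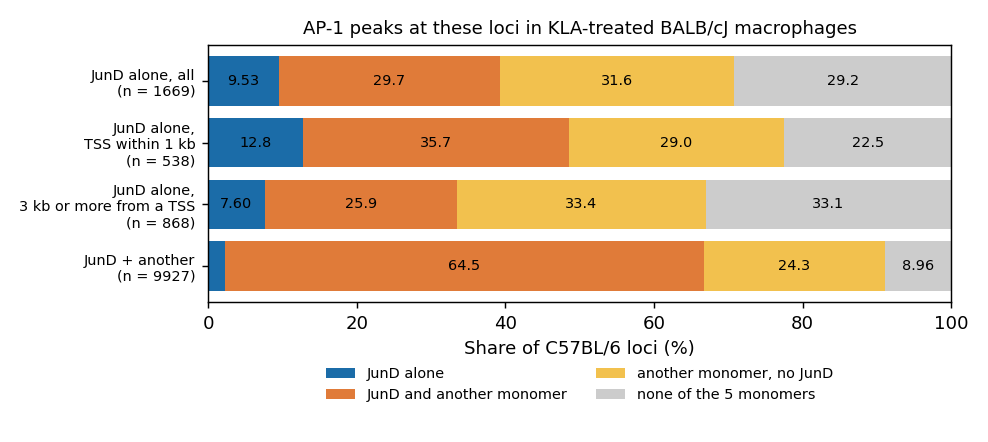
AP-1 KLA peaks of BALB/cJ TGEMs at loci defined in C57BL/6, as the share of loci (%) with JunD alone, JunD with another monomer, another monomer without JunD, or none of the 5 monomers. JunD alone recurs at 9.53% of the JunD-alone loci and at 12.8% of those with a TSS within 1 kb.

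Recovery followed the JunD count. From the weakest to the strongest of 5 equal groups by count, the share with a BALB/cJ JunD KLA peak was 30.2%, 34.1%, 38.1%, 40.7% and 53.0%, and the intervals of the weakest (25.6 to 35.4%) and the strongest group (47.6 to 58.3%) did not overlap. The share with another monomer in BALB/cJ also went from 52.1% to 71.6%. Among the 655 recovered loci, the counts of both strains had a Spearman rho of 0.287 over loci, given as a description. Recovery at promoters was 48.5% (44.3 to 52.7%) and at loci 3 kb or more from a TSS 33.5% (30.5 to 36.7%).

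**Figure D4:**
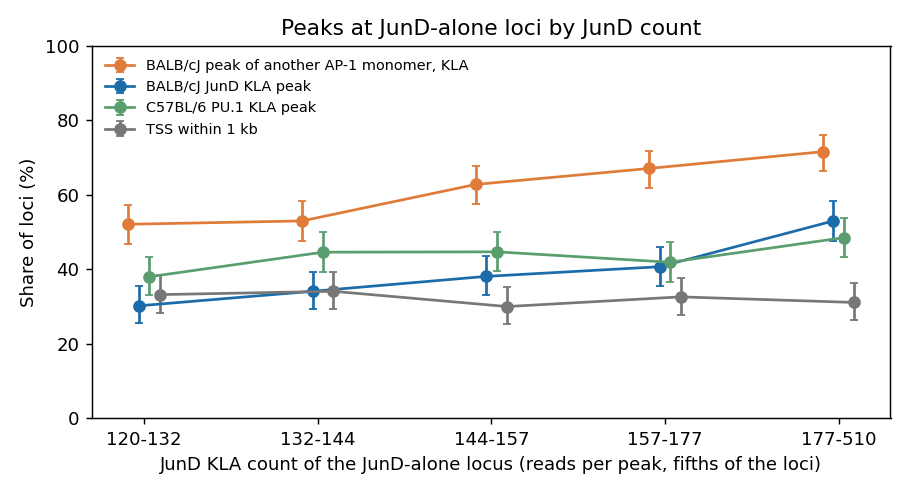
Share of JunD-alone loci (%) with a BALB/cJ KLA peak of JunD or of another monomer, a PU.1 KLA peak or a TSS within 1 kb, in 5 equal groups by JunD KLA count (reads per peak, as deposited); error bars are 95% Wilson intervals. Both BALB/cJ shares are higher in stronger groups, and the share at promoters stays between 30.0% and 34.1%.

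Vehicle lists outside the rule held peaks at some of these loci. In BALB/cJ, 372 JunD-alone loci (22.3%, 20.4 to 24.3%) had an AP-1 Veh peak, beside 23.4% of all new KLA loci, and 311 of the 1669 loci (18.6%) had JunD, 102 (6.11%) ATF3 and 34 (2.04%) cJun. Over all new KLA loci these shares were 19%, 9.17% and 3.06%. In the PPARγ knockout, 377 loci (22.6%, 20.6 to 24.7%) had an AP-1 Veh peak, beside 22.2% of all new KLA loci. The knockout ATF3 list overlapped 256 loci (15.3%), the JunD list 207 (12.4%) and the cJun list 7 (0.419%), beside 17%, 8.98% and 0.467% of all new KLA loci. The wild-type Veh lists of the other monomers overlapped 21 JunD-alone loci for Fra2 (1.26%) and 17 for Fos (1.02%), close to the 1.28% and 1.07% over all new KLA loci. For JunB it was 0 of 1669, which allows a share of up to 0.180% by counting error alone, and the share over all new KLA loci was 0.0462%.

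Most JunD-alone loci had no exact AP-1 site in their central 200 bp. Matches were sought on both strands for 14 motifs: the TRE, the CRE, a CEBP-ATF composite (TGATGCAA), PU.1 (ACTTCCT), CEBP (TTGCNNAA), Runx (TGTGGTT), κB (GGANTTNCC), the ISRE (GAAANNGAA), the E-box (CACGTG), Sp1 (CCCCGCCC), Ets (CCGGAAGT), Nrf1 (GCGCATGCG), the ARE (TGACNNNGC) and NFY (AGCCAAT). A TRE followed by GC is counted as an ARE too. The TRE was found at 331 JunD-alone loci (19.8%) and in 29.7% of windows of the same length at all new KLA loci. Loci with JunD and another monomer had it in 32.1% of cases (12.2 points more, Fisher's exact test, adjusted p = 1.80e-24) and Fos-alone loci in 42.4% (22.6 points more, adjusted p = 2.37e-37). ATF3-alone loci had 22.6% (JunD-alone minus ATF3-alone, -2.79 points, exact test, adjusted p = 0.0320). Among loci 3 kb or more from a TSS that difference was 0.544 points in the other direction and did not pass the exact test (adjusted p = 0.843). The CRE was found at 12 JunD-alone loci (0.719%), against 2.39% of ATF3-alone loci (Fisher's exact test, adjusted p = 1.56e-05) and 0.594% of the loci with JunD and another monomer (adjusted p = 0.575).

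Motif content split with position. The TRE was found at 45 of 538 JunD-alone promoters (8.36%) and at 220 of 868 loci 3 kb or more from a TSS (25.3%, 22.6 to 28.3%). The Sp1 motif, a GC box common at promoters, went the other way, with 16.7% of promoters and 1.04% of distal loci. The Ets motif was found at 5.76% of promoters and 1.04% of distal loci. Over all JunD-alone loci, Sp1 (6.29%) and Ets (2.46%) matches were more frequent than at loci with JunD and another monomer (2.52% and 0.786%, Fisher's exact test, adjusted p = 3.35e-13 and 1.34e-07). Neither difference passed the exact test among loci 3 kb or more from a TSS (adjusted p = 0.681 and 0.103), where the Sp1 difference was -0.337 points.

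The PU.1 motif was found at 272 JunD-alone loci (16.3%) and in 15% of all new KLA loci, and no comparison of it passed Fisher's exact test (adjusted p from 0.178 to 0.517). It was found in 25.9% of the 727 loci with a PU.1 KLA peak and 8.92% of the 942 without. The CEBP motif was found at 190 loci (11.4%), below the 14.1% of loci with JunD and another monomer (exact test, adjusted p = 0.00613), and at 39.3% of the 135 loci with a CEBPα KLA peak. Among loci 3 kb or more from a TSS the former difference was -1.06 points and did not pass the exact test (adjusted p = 0.624). The κB motif, bound by NFκB, was found at 9.65%, below the 12.9% of loci with another monomer (exact test, adjusted p = 3.51e-04) and above the 6.72% of ATF3-alone loci (adjusted p = 4.10e-04). Within bins of equal rank the former difference was 0.188 points in the other direction and did not pass the Cochran-Mantel-Haenszel chi-square test (adjusted p = 0.931). Runx and E-box matches did not differ from any of the 3 sets past the threshold (exact test, adjusted p from 0.160 to 0.907). In all, 490 JunD-alone loci (29.4%) held none of the 14 motifs, a share that was not counted for the other sets and so allows no comparison. A BALB/cJ JunD KLA peak was found at 33.8% of the loci with a TRE and at 40.6% of those without. These shares were not split by position. The TRE was less frequent at promoters (8.36%) than at loci 3 kb or more from a TSS (25.3%). The BALB/cJ JunD KLA peak was more frequent at promoters (48.5%) than at such distal loci (33.5%). Whether the TRE went with recovery apart from position was not tested.

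**Figure D5:**
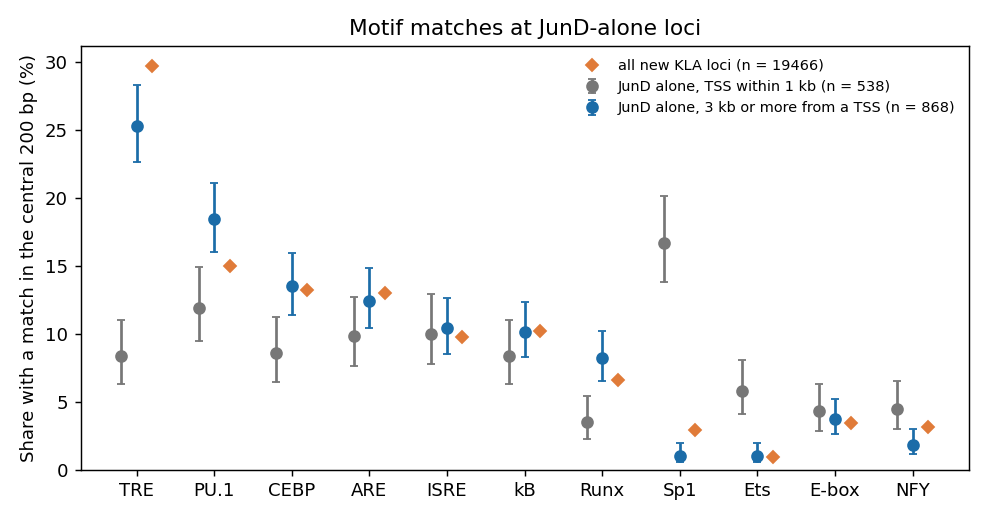
Share of loci (%) with an exact match to each of 11 motifs in the central 200 bp, for JunD-alone loci at promoters and 3 kb or more from a TSS (95% Wilson intervals) and for all new KLA loci (diamonds). The TRE is found at 8.36% of promoter loci and 25.3% of distal loci, and the Sp1 motif at 16.7% and 1.04%.

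The strongest JunD-alone locus was chr13:55189796-55190011, with a count of 510, between genes and 19879 bp from the nearest TSS, that of the histone methyltransferase gene Nsd1. Its only other peak was PU.1 in KLA, with a count of 31, and BALB/cJ cells had no AP-1 KLA peak there. The next, chr6:122638443-122638664 (count 371, 11800 bp from Dppa3), had ATF3 (55) and Fos (124) without JunD in BALB/cJ KLA. It also had JunD (79) and ATF3 (44) peaks in BALB/cJ Veh and JunD (44) and ATF3 (25) peaks in the knockout. It was therefore a site with AP-1 peaks in resting cells of both other sources. A C57BL/6 AP-1 peak that would have excluded this locus also lay within 50 bp, without overlap.

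The third, chr15:57892334-57892794, was the promoter of Derl1, an endoplasmic reticulum quality control gene, 116 bp from the TSS with a JunD KLA count of 369. PU.1 was found there in Veh (241) and KLA (83) and PPARγ in Veh (43). In BALB/cJ the KLA counts were 35 for JunD, 24 for ATF3 and 44 for Fos. Resting cells of both other sources had AP-1 peaks here too, JunD (39) in BALB/cJ Veh and JunD (39) and ATF3 (35) in the knockout. An intronic locus 3593 bp from the TSS of 5430434F05Rik (chr6:83417256-83417542, count 350) and an intron of the nucleolar protein gene Rrp1b (chr17:32040587-32040788, count 348) both had BALB/cJ JunD KLA peaks, of 43 and 70, and BALB/cJ JunB peaks of 26 and 48. The Rrp1b locus had a BALB/cJ ATF3 KLA peak of 58 as well. An intron of Rbms1 (chr2:60901805-60902038, count 336) held a CRE, and in BALB/cJ had ATF3 (69) as its only AP-1 KLA peak. The Cxcl2 locus described below had the same count. Of the 6 strongest loci, 3 had a BALB/cJ JunD KLA peak, and each of these had another BALB/cJ monomer too.

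Other strong promoter loci were those of the calcium channel gene Orai2 (chr5:136171243-136171488, count 308) and Gm16181 (chr17:35219974-35220272, count 301). At Orai2 the BALB/cJ JunD KLA count was 174, beside a JunB count of 118. At Gm16181 no BALB/cJ AP-1 KLA peak was found. At the weak end, 3 of the loci with the lowest count, 120, had their nearest TSS at Mrpl48 (272 bp), Gm44891 (8127 bp) and Slc6a20a (4987 bp), and none of them had a BALB/cJ JunD KLA peak.

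The 6 strongest loci with JunD alone in BALB/cJ as well had C57BL/6 counts from 210 to 280. The locus 927 bp past the annotated end of Dusp1, a MAP kinase phosphatase gene with an annotated span of 56.5 kb, lay 1463 bp from its nearest TSS, that of AC122252.2. It had a count of 280 in C57BL/6 and 102 in BALB/cJ. The Slc6a6 intron (taurine transporter) had 254 and 26 and a CEBPα KLA peak of 62, and the Gas7 intron had 237 and 33. The Gm47711 promoter had 225 and 20, with PU.1 in KLA (26). The promoter of Dad1, a subunit gene of the oligosaccharyltransferase complex (chr14:54253997-54254225), had 222 and 39, with PU.1 (141) and PPARγ (55) in Veh. An intron of Blnk, a signalling adaptor gene (chr19:40980769-40980976), had 210 and 29 with a TRE and PU.1 in KLA (65). PU.1 was thus found in KLA at 2 of the 6, and the TRE at 1.

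Genes with a JunD-alone locus in the gene or within 5 kb numbered 1385 of 21938 protein-coding genes (6.31%), and 1266 of the loci (75.9%) lay in such a window. Most of these genes, 1234, had 1 locus, 126 had 2 and 25 had 3 or more. The most were at Gm20388 (5) and Fgfr2 (4), whose annotated spans of 4435 and 2961 kb cover many other genes, at Nsun7 (4, over 38.1 kb), and at 22 genes with 3, of which Add3 comes first by name. The Nsun7 loci had counts of 127 to 146, and in BALB/cJ 1 of them had a JunD KLA peak. At Add3, a cytoskeletal adducin gene, the promoter locus (chr19:53142378-53142617, count 138) and an intron locus (chr19:53170643-53170871, count 141) overlapped PU.1 peaks of 240 and 601 in Veh, and the remaining locus held a TRE.

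Gene lists for the macrophage response were counted in the same window. Of 150 listed genes, 39 (26.0%) had a JunD-alone locus, and 99 (66.0%) had a new locus with JunD and another monomer, against 6.31% and 19.4% of all protein-coding genes. The lists hold genes picked as relevant to activated macrophages and received no test. Of the 39 genes, 29 (74.4%) had a new locus with JunD and another monomer as well, and of all genes with a JunD-alone locus 737 (53.2%) did. The 49 loci at these genes lay upstream in 7 cases, in the gene body in 32 and past its end in 10. BALB/cJ cells had a JunD KLA peak at 22 of the 49 and no AP-1 KLA peak at 13.

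AP-1 genes, listed here together with Maff and Mafk, were the list with the largest share, 7 of 14. The Junb gene body held 2 loci, chr8:84975427-84975720 (count 198, without a PU.1, CEBPα, PPARγ or BALB/cJ AP-1 KLA peak) and chr8:84975834-84976043 (count 160, with a BALB/cJ JunD KLA count of 80 and no other monomer). The Maff promoter (chr15:79346462-79346671, count 222) carried CEBPα in Veh (128) and KLA (165), PPARγ (39), and in BALB/cJ ATF3 (46) and Fos (73) without JunD. A locus 551 bp upstream of Jun (chr4:95052666-95052880, count 167) had ATF3 (42) and Fos (54) in BALB/cJ. The Jdp2 promoter (chr12:85598819-85599063, count 152) had ATF3 (34) and JunB (40) there, while the Fosl2 promoter (chr5:32136400-32136759, count 123) had JunD in BALB/cJ Veh (27) and KLA (26). An intron of Atf3 (chr1:191180426-191180638, count 122) had PU.1 peaks of 327 in Veh and 156 in KLA, and BALB/cJ JunD (34), Fos (31) and JunB (19). The locus at Fosb (count 141) lay 3329 bp past the end of the gene. Of the 14 genes, 8 had a new locus with JunD and another monomer, and 12 had a new KLA locus of any kind. At 2 of the 14 an ATF3-alone locus was found, and at none a Fos-alone locus.

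Cytokine and chemokine genes had JunD-alone loci at 7 of 20. The Cxcl2 locus (chr5:90906642-90906855, count 336), whose TRE is printed above, lay 810 bp past the end of this neutrophil chemokine gene, and BALB/cJ had weak ATF3 (22) and Fos (28) peaks there without JunD. The Cxcl1 locus (chr5:90893544-90893811, count 209) lay 562 bp past the gene end, with JunD alone in BALB/cJ KLA at a count of 95. The Cxcl3 locus (chr5:90788113-90788335, count 192) was in the gene and held a TRE. Its BALB/cJ JunD count was 29. The Ccl3 locus (chr11:83646030-83646260, count 149), 1699 bp past the gene end, again had JunD alone in BALB/cJ, at 62.

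The Ccl2 locus (chr11:82039288-82039504, count 169) lay 1943 bp past the end of this monocyte chemokine gene and had a BALB/cJ Fos peak of 36. Cxcl10, an interferon-induced chemokine, was the only one of the 7 with the locus upstream (chr5:92349567-92349928, count 228, 858 bp from the TSS). It held a TRE, a PU.1 KLA peak of 89 and, in BALB/cJ, JunD (47), ATF3 (41), cJun (30) and Fos (43). Il1a, which encodes an interleukin 1 cytokine, had 3 loci in its gene body with counts of 123, 150 and 125, and none of them overlapped a PU.1, CEBPα, PPARγ or BALB/cJ AP-1 KLA peak. Of the 20 genes, 17 also had a new locus with JunD and another monomer.

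The remaining lists had fewer. NFκB genes had 3 of 13, Rel (count 153, PU.1 at 211 in Veh), Nfkbia and Bcl3. The locus past Nfkbia, the gene of the NFκB inhibitor IκBα (chr12:55486965-55487231, count 167), had a BALB/cJ JunD count of 62, and the Bcl3 promoter (chr7:19822679-19822898, count 128), which holds a κB motif, one of 85. Other BALB/cJ KLA peaks were Fos (30) at Nfkbia and ATF3 (27) and Fos (62) at Bcl3. TLR4 signalling genes had 2 of 16, an intron of Tlr4 itself (chr4:66830606-66830850, count 143, PU.1 at 228 in Veh) and an intron of Irak2 (chr6:113659742-113659977, count 210). MAP kinase feedback genes had 3 of 12, Dusp1, Dusp16 (count 175) and Spred1 (131 and 149), and the 3 loci at Dusp16 and Spred1 had BALB/cJ JunD KLA peaks of 49, 36 and 28 and Fos peaks of 97, 34 and 52. Interferon response genes had 3 of 15, Irf1 (147), Irf9 (148) and Rsad2. The loci at Irf1 and Irf9 had PU.1 Veh peaks of 256 and 208 and no BALB/cJ JunD KLA peak. Other BALB/cJ KLA peaks were ATF3 (34), Fos (39) and JunB (21) at Irf1 and cJun (23) and Fos (26) at Irf9. BALB/cJ Veh peaks were ATF3 (28) at Irf1 and JunD (35) and ATF3 (18) at Irf9. Near Rsad2, an antiviral gene, the locus past the gene end (count 192) had no BALB/cJ peak and the one in the gene body (count 168) had JunD (45), ATF3 (40), Fos (55) and JunB (24).

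Among regulators of the macrophage state, 3 of 13 had a locus. The promoter of Egr1, an immediate early gene (count 139), had PU.1 in Veh (179) and KLA (58) and PPARγ (55). The Egr2 intron (chr10:67536731-67536935, count 127) had PU.1 in KLA only (91), and the Pparg intron (chr6:115366916-115367165, count 161) had PU.1 in KLA only (46) and a BALB/cJ JunD KLA peak of 56. At this Pparg locus BALB/cJ cells also had ATF3 (30) and Fos (48) in KLA and JunD (22) in Veh. Lysosome genes had 4 of 15, with 3 loci in Mitf (132, 121 and 159) and 1 each at Ctsl (185), Tfeb (126) and Gpnmb (163). The Mitf locus at 121 had a PU.1 Veh peak of 633, and the Ctsl locus was the only one of the 6 with a BALB/cJ JunD KLA peak (46). At Ctsl, BALB/cJ cells also had Fos (29) in KLA and JunD (29) in Veh. Cell cycle genes had 4 of 12, Ccnd2 (148), Ccnd3 (196), Cdk6 (154) and Cdkn1b (180 and 149). The Cdkn1b promoter locus (chr6:134920266-134920515, count 180) lay 11 bp from the TSS of this cyclin-dependent kinase inhibitor gene, with CEBPα in KLA only (41). Oxidative stress and iron genes had 1 of 16, an intron of Keap1 (chr9:21235371-21235583, count 171). Its BALB/cJ KLA counts were 41 for JunD and 39 for Fos, and the knockout had a JunD peak (16). Of a further list of 8 macrophage genes (Mmp12, Marco, Fth1, Cxcl10, Cx3cr1, Tgfbr1, Spsb3 and Irf3), 3 had a locus, Cxcl10, Tgfbr1 (counts 123 and 152) and Cx3cr1 (138 and 122). The Cx3cr1 loci lay more than 85 kb from the start of that gene, whose annotated span covers 168 kb, and the TSS of Csrnp1 was nearer.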

How the data were processed

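Bowtie2 was the authors' aligner, on mm10 for C57BL/6 and on a custom genome for BALB/cJ, whose positions were then returned to mm10. HOMER called peaks over the matching input, and the authors kept those with an IDR below 0.05. Each deposited list gives, per peak, a whole-number count, taken here as reads not scaled to library size, and the scaled IDR score that the authors computed over replicates. How replicate experiments were combined in the count is not given in the sources used here, and the JunD KLA and PU.1 Veh lists are on a much higher scale than the others. Depth is known here only as these counts per peak. The JunD-alone loci, gene lists and tests were chosen with earlier results of these data known.

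In Python 3.11.15 (pandas 2.3.3, scipy 1.17.1, statsmodels and pysam), peaks sharing 1 bp or more were merged. Peaks were ranked by count within a list only. Annotation was GENCODE vM21 and sequence the GRCm38 RefSeq assembly, and no peak lay beyond a chromosome end. A promoter locus has its centre within 1 kb of a TSS. Positions of peaks are as deposited, and those of printed sequences are counted from 1.

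Shares carry 95% Wilson intervals, which cover counting error only. Shares of 21 features were compared with 3 other sets of new KLA loci by two-sided Fisher's exact tests (61 tests, Benjamini-Hochberg, threshold 0.05), with Newcombe intervals for differences. Gained and lost PU.1 and CEBPα peaks, knockout lists, ranks and gene lists were not tested. Overlaps, motif search and tests were checked on simulated data. Alternatives were centres within 100 bp, overlap of 50% of both peaks, stronger peaks, other motif windows, loci at least 3 kb from a TSS, and Mantel-Haenszel tests within 10 bins by rank.

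Named loci were the 6 with the highest JunD count, the 6 highest with JunD as the only AP-1 peak in BALB/cJ, the 3 highest with a TRE, the 3 highest at a promoter, the 3 lowest, those at the 4 genes with most loci, and those within 5 kb of a listed gene. The authors' inputs are not used here.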

Additional observations from a re-analysis of the deposited data

How the results depend on the processing

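The number of JunD-alone loci was 1669 and stayed between 1308 and 1883 with centres within 100 bp, 50% reciprocal overlap, scaled IDR scores of at least 830, all 6 Veh lists or a 500 bp margin. It was 651 with the strongest 50% of every list, of which 17 overlapped the original loci, and 17 when only JunD peaks in the strongest 50% could qualify. At a score of 830 the number was 1447, of which 285 were among the original loci. The 17 loci in the strongest 50% of the JunD list allow only coarse shares. With them, the shares were 47.1% for BALB/cJ JunD in KLA, 76.5% for another BALB/cJ monomer, 17.6% for BALB/cJ Veh, 23.5% and 64.7% for PU.1 in Veh and KLA, and 0% and 5.88% for CEBPα.

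With centres within 100 bp the shares were 36.2% for BALB/cJ JunD, 58.8% for another BALB/cJ monomer, 19.4% for BALB/cJ Veh, 19% for the knockout, 27.6% and 38.5% for PU.1 in Veh and KLA, and 23.6% for PPARγ. With 50% reciprocal overlap they were 19.7% for BALB/cJ Veh, 19.9% for the knockout, 28.0% and 38.9% for PU.1, and 24.5% for PPARγ. With the strongest 50% of the other list they were 14.9% and 23.1% for PU.1, 1.80% and 2.40% for CEBPα and 13.0% for PPARγ, since fewer peaks could match. At least 3 kb from a TSS they were 33.5% for BALB/cJ JunD, 18.4% for BALB/cJ Veh, 16.4% for the knockout and 25.3% for the TRE. The TRE share was 16.1% in the central 100 bp. The promoter share was 48.0% with a 3 kb window and 28.7% with protein-coding TSSs only.

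Of 135 differences of shares under alternatives, 102 kept their direction and side of the threshold, 17 kept the direction and lost the call, 2 gained one and 14 changed sign. In the values that follow, the share elsewhere is subtracted from that at JunD-alone loci. Against loci with JunD and another monomer, PU.1 in KLA changed sign to 7.39 points within rank bins, was -4.40 points (now past the threshold) at least 3 kb from a TSS, and PPARγ was 1.09 points there, no longer past it. The κB motif (0.188 points, rank bins), the Sp1 motif (-0.337, 3 kb) and, against ATF3-alone loci, the TRE (0.544, 3 kb) changed sign and lost their calls. CEBPα in Veh against Fos-alone loci was 2.08 points at 3 kb, no longer past the threshold. The other 10 changes of sign were of differences that passed the threshold in neither setting. Within rank bins these were Runx 0.0168, the E-box -0.0184 and NFY -0.214 against loci with JunD and another monomer. At least 3 kb from a TSS they were CRE -0.0016, Runx 1.08 and NFY -0.738 against the same loci, CEBPα in KLA 0.559, the ISRE -0.152 and the ARE 0.0743 against ATF3-alone loci, and Sp1 -0.889 against Fos-alone loci. The cause of these changes was not tested. No replicate could be left out because each condition has 1 list.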
